A study of Mus musculus with 2 samples.

Results

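The genes described are Ppy, Pyy, Npy and Npy1r, the members of the pancreatic polypeptide and peptide YY family listed for islets, which were found by their symbols and make up 4 of the 22383 features counted. Their UMIs (molecular tags that each mark 1 captured transcript) were read per cell barcode and summed by library and hormone class in single-cell RNA sequencing of mouse islets. The control group, labelled wildtype, and the group labelled TBL/RβKO each gave 1 library from mice aged 5 weeks, and each library was made from 150 islets pooled from 4 mice. TBL/RβKO mice carried Cre recombinase placed in the Ins1 gene together with loxP-flanked alleles of Tbl1x and Tbl1xr1, genes for transcriptional co-factors, while controls were littermates without Cre. All mice had a C57BL/6N background, and the islets of both groups were cultured overnight before dissociation. Cre was driven by the Ins1 promoter, so the deletion is limited to cells that have used this promoter. With 1 library per group there was no replicate, so no difference could be tested, and every interval given is an exact 95% interval that covers counting error only.

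Pancreatic polypeptide (gene Ppy), peptide YY (Pyy) and neuropeptide Y (Npy) are short amidated peptides that share a fold and are cut from longer precursors. In islets Ppy marks PP cells, Pyy is made by several non-β endocrine cell types, and Npy is best known as a transmitter of sympathetic nerves that has also been described in immature β-cells. They act on receptors coupled to inhibitory G proteins, of which Npy1r encodes the Y1 receptor, while the Y4 receptor (Npy4r) is the main target of pancreatic polypeptide.

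In the GENCODE M39 annotation of GRCm39, Ppy (ENSMUSG00000017316) lies at chr11:101990756-101992145 and Pyy (ENSMUSG00000017311) at chr11:101997502-101998658, both on the minus strand. They are neighbours, with 5356 bases and 0 annotated genes between them. Npy (ENSMUSG00000029819) lies at chr6:49799026-49806489 and Npy1r (ENSMUSG00000036437) at chr8:67149364-67159731, both on the plus strand. No annotated gene overlaps any of the 4. The stretches below, read from the GRCm39 coding sequence and shown because they make the 3 peptides and tell their transcripts apart, hold the 36 codons of each peptide in lower case and, in capitals, the 3 codons of the amidation and cleavage signal. Each spans 117 bases of 2 coding exons, at chr11:101991097-101991450 for Ppy, chr11:101997870-101998094 for Pyy and chr6:49800662-49804481 for Npy.
Ppy: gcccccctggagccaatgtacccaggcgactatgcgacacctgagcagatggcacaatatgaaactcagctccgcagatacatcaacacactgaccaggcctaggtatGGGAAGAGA
Pyy: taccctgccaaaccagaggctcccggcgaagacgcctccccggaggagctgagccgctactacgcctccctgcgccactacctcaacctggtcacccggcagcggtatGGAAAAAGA
Npy: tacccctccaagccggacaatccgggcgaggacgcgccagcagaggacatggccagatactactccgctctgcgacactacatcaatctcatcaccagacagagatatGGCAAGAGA
Over the 108 bases of the peptide, Ppy and Pyy had 58 bases (53.7%) in common, Npy and Ppy 61 (56.5%), and Npy and Pyy 76 (70.4%).

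The windows of 250 bases before the start sites of Ppy and Pyy are shown because the UMIs of both neighbours were higher in insulin-class barcodes of the TBL/RβKO-labelled library. They are taken from RefSeq on GRCm38.p6, minus strand, at chr11:102101320-102101569 for Ppy and chr11:102107833-102108082 for Pyy, with the letters TATAA in capitals.
Ppy: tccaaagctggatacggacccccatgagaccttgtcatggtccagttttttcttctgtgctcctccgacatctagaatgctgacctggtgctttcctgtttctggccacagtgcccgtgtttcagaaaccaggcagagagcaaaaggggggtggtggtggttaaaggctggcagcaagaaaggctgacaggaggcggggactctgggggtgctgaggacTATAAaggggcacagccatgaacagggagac
Pyy: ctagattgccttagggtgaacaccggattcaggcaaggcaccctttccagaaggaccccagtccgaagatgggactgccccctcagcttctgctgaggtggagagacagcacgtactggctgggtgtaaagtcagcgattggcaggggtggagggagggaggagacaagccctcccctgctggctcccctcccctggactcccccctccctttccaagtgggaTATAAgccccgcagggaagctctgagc
TATAA began 31 bases before the start site of Ppy and 27 bases before that of Pyy. For another RefSeq start site of Pyy, whose window is not shown, it began 83 bases before, outside the last 40 bases. Searched on both strands (TATAA or TTATA), 7485 of the 32851 RefSeq windows of this length (22.8%) held it, and 1391 (4.23%) held it on the gene's own strand within the last 40 bases. The windows of Npy and Npy1r did not hold these letters.

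Barcodes were kept with more than 2500 detected genes and under 10% mitochondrial UMIs, with no upper limit on genes, which left 4747 control barcodes with 230508816 UMIs and 4179 barcodes of the TBL/RβKO-labelled library with 175863899 UMIs. Each barcode took the class of its largest hormone (Ins1 and Ins2 together, Gcg, Sst or Ppy) at 100 or more per 10000 of its UMIs, so Ppy itself served to define classes and was bounded by insulin in the insulin class. A hormone class is therefore not a cell type. Cre UMIs were in 306 kept barcodes of the TBL/RβKO-labelled library and in 0 control barcodes. The targeted genes went against the label, since insulin-class levels of Tbl1x were 96.9 CPM (UMIs per 1000000 UMIs of the class) in the control and 351 CPM in the other library, and those of Tbl1xr1 20.0 and 129 CPM. The counts come from the 3′ end of transcripts, and whether the deleted part lies there was not given, so these levels do not check the deletion. The libraries had 12 kept barcodes in common, and leaving these out moved none of the insulin-class log2 ratios or shares by more than their counting error.

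Ppy, Pyy, Npy and Npy1r differed by orders of magnitude in abundance. Kept barcodes held 4538737 Ppy UMIs in the control (19690 CPM) and 6199670 in the TBL/RβKO-labelled library (35253 CPM). Pyy gave 2485621 UMIs (10783 CPM) and 6299533 UMIs (35821 CPM). Ppy thus exceeded Pyy in the control, and both were about equal in the other library. Npy gave 1574 UMIs (6.83 CPM) and 2636 UMIs, and 1 barcode alone held 550 of the control's and 632 of the other library's Npy UMIs. Npy1r, the only receptor among these genes, gave 10 and 38 UMIs.

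**Figure D1:**
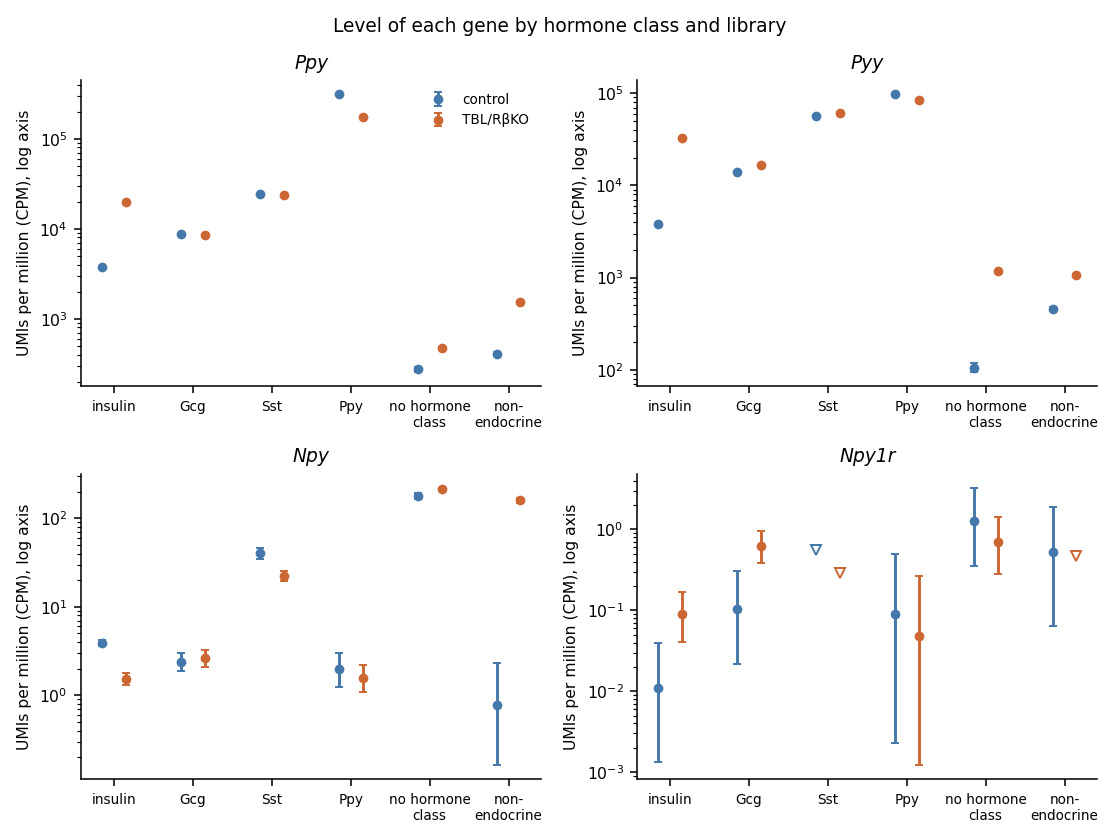
Level of Ppy, Pyy, Npy and Npy1r in CPM (log axis) by hormone class and in non-endocrine barcodes, for control (blue) and the TBL/RβKO-labelled library (orange), with exact Poisson 95% intervals. Open triangles stand at 3 counts where no UMI was found. Ppy and Pyy are higher in the orange library in the insulin class and lie close together in the Gcg and Sst classes.

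Free RNA in droplets sets the level below which UMIs cannot be read as expression. It was measured in 148 control and 240 TBL/RβKO-labelled barcodes that carried macrophage, lymphocyte, stromal or endothelial markers above endocrine granin genes (median depths of 22979 and 21207 UMIs). In these the median barcode held 3.20 and 2.95 Ppy UMIs per 10000, and 0 (up to 2.46%) and 2 barcodes reached 100 per 10000. The median for Pyy was 1.24 and 2.90 per 10000, and 1 and 2 barcodes reached 100. The background was therefore alike for Ppy and higher for Pyy in the TBL/RβKO-labelled library. Summed over these barcodes, Ppy stood at 404 and 1529 CPM, since single barcodes weigh on a sum more than on a median.

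The insulin class held 2877 control barcodes and 1338 barcodes of the TBL/RβKO-labelled library, with median depths of 53346 and 67897 UMIs. Ppy, which encodes a hormone of another islet cell type, stood at 3761 CPM (3752 to 3770) in the control class and at 19803 CPM (19776 to 19831) in the other. The log2 ratio was 2.40 (2.39 to 2.40). Pyy, the neighbouring gene, gave 3811 CPM (3802 to 3820) in the control and 33008 CPM (32972 to 33043) otherwise, and its log2 ratio was 3.11 (3.11 to 3.12). Both ratios lay far into the upper end of all genes, at the 99.0th percentile for Ppy and the 99.5th for Pyy of the 7918 genes that reached 10 CPM in either library. Of these genes 8.27% were higher and 1.25% lower by a log2 ratio of at least 1, and the median gene was at 0.31. Of the 4 members 2 reached 10 CPM, Ppy and Pyy, and both were higher by more than that. Over UMIs other than the islet hormones, Iapp and mitochondrial genes, the log2 ratios were 1.94 for Ppy and 2.66 for Pyy.

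The per-barcode distributions also differed between the libraries. The median control barcode of the insulin class held 2.87 Ppy UMIs per 10000, with quartiles at 2.18 and 4.24, close to the 3.20 of the non-endocrine barcodes. In the TBL/RβKO-labelled library the median was 107 per 10000, with quartiles at 6.55 and 281. For Pyy the medians were 1.21 (0.793 to 3.01) and 210 (9.69 to 520). The interquartile ranges of the 2 libraries did not overlap for either gene, while the full ranges did, since 1 control barcode reached 2568 Ppy UMIs per 10000 and the lowest barcode of the other library held 0.444. At 100 or more Ppy UMIs per 10000 were 167 control barcodes (5.80%, 4.98 to 6.72) and 691 barcodes of the other library (51.6%, 48.9 to 54.4). For Pyy these numbers were 304 (10.6%, 9.47 to 11.7) and 821 (61.4%, 58.7 to 64.0).

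With every barcode thinned to 5000 UMIs, 78.5% of control insulin-class barcodes and 94.7% of those in the TBL/RβKO-labelled library had a Ppy UMI, against 100% in both without thinning. The share in non-endocrine barcodes thinned alike was 77.0% and 80.0%. For Pyy the thinned shares were 55.8% and 93.9% in the insulin class, against 98.9% and 100% without thinning, and 48.6% and 77.5% in non-endocrine barcodes. At equal depth the share of control insulin-class barcodes with a Ppy UMI lay within the interval of the non-endocrine ones (69.4 to 83.5), and that of the other library (93.4 to 95.8) lay above its own (74.4 to 84.9).

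**Figure D2:**
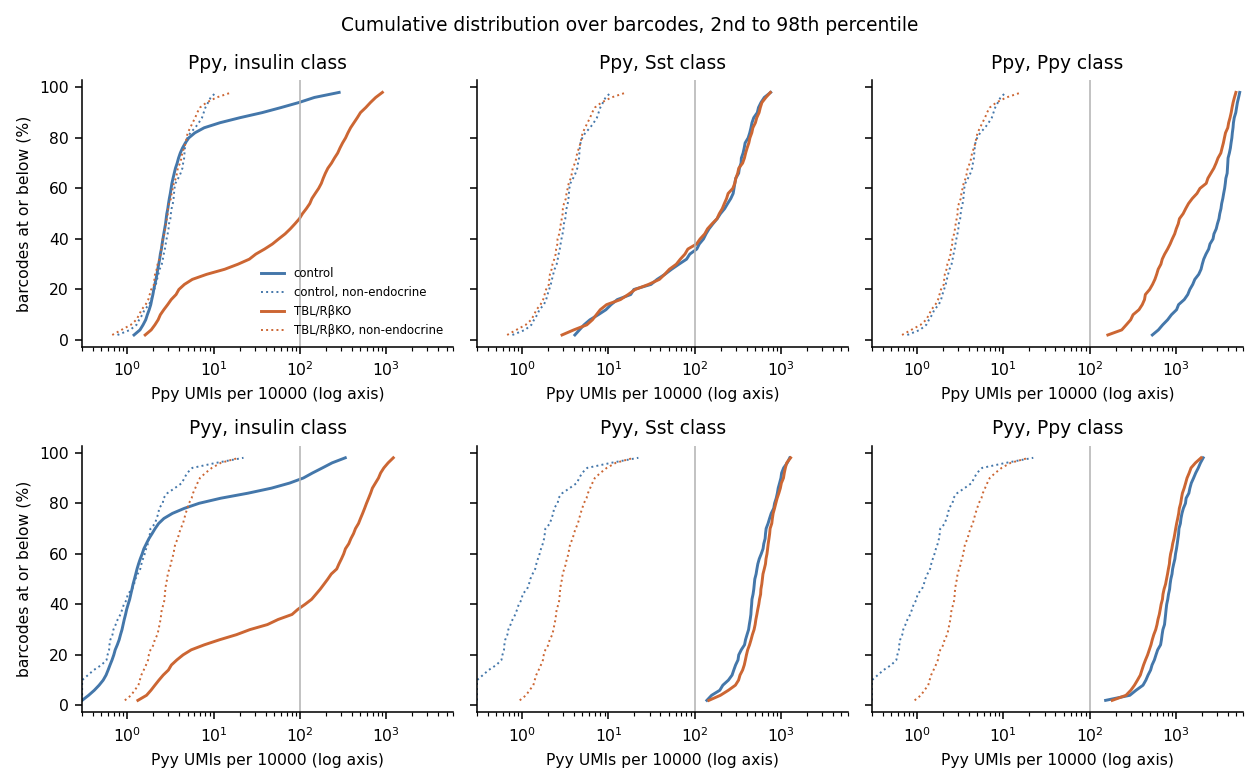
Share of barcodes (%, vertical axis) at or below a given number of Ppy (top) or Pyy (bottom) UMIs per 10000 (log axis) in the insulin, Sst and Ppy classes, for control (blue) and the TBL/RβKO-labelled library (orange). Dotted lines are non-endocrine barcodes of the same library and the grey line marks 100 per 10000. In the insulin class the blue line of Ppy runs along the dotted one to about 80% of barcodes and that of Pyy to about 70%, and the orange lines lie to their right, while in the Sst class the libraries nearly coincide.

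Ppy and Pyy both reached 100 per 10000 in 150 control barcodes of the insulin class (5.21%) and in 649 of the TBL/RβKO-labelled library (48.5%). Pyy alone did so in 154 (5.35%) and 172 (12.9%), and Ppy alone in 17 (0.591%) and 42 (3.14%). In the control, barcodes with Pyy alone were thus about as many as those with both, and barcodes with Ppy alone were the fewest in each library. Pyy exceeded Ppy in 19.4% of control and 70.6% of the other library's barcodes of this class, and exceeded insulin as well in 0 and 74 barcodes.

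The number of detected genes, which is higher where a droplet holds more RNA, went together with Ppy and Pyy in both libraries. In control barcodes with over 2500 and up to 4000 detected genes, 0.952% of the insulin class held 100 or more Ppy UMIs per 10000, followed by 1.77% up to 6000, 7.29% up to 8000 and 18.5% above 8000 genes. In the TBL/RβKO-labelled library the shares in these bands were 42.0%, 36.3%, 48.1% and 69.4%. Within every band the 95% intervals of the libraries stayed apart for Ppy and for Pyy. The lowest band held unlike barcodes, 210 in the control with a median of 257 insulin UMIs per 10000 and 50 in the other library with 3626. The median control non-endocrine barcode held 77.2 insulin UMIs per 10000, so control barcodes of this band lay nearer to free RNA. Insulin-class barcodes without a second hormone (Gcg and Sst under 100 per 10000) held Ppy at that level in 41 of 2450 control barcodes (1.67%, 1.20 to 2.26) and in 404 of 929 in the other library (43.5%, 40.3 to 46.7). Pyy reached it in 69 (2.82%) and 473 (50.9%) of them. The log2 ratios of the sums were larger there, at 3.26 for Ppy and 4.43 for Pyy, and at 3.71 and 4.43 with fewer than 6000 detected genes, the upper limit used in the study.

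**Figure D3:**
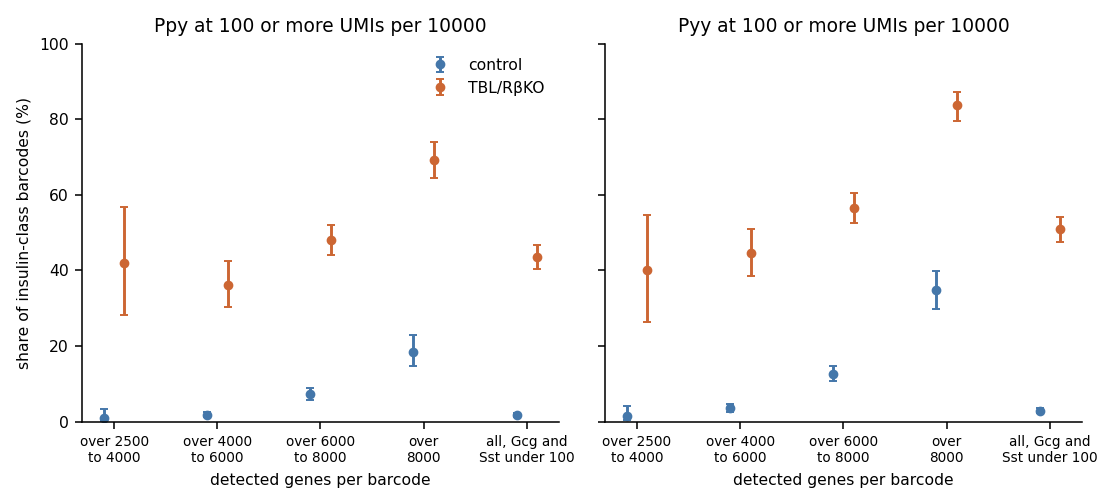
Share of insulin-class barcodes (%) with 100 or more Ppy (left) or Pyy (right) UMIs per 10000, by number of detected genes and, at the far right, over all barcodes with Gcg and Sst under 100 per 10000. Points are control (blue) and the TBL/RβKO-labelled library (orange) with exact binomial 95% intervals, and in every band the orange interval lies above the blue one.

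The insulin-class barcodes at 100 or more Ppy UMIs per 10000 differed from the rest of their class. In the TBL/RβKO-labelled library they held a median of 1632 insulin UMIs per 10000 against 3788 in the other barcodes. Mafa, a transcription factor of mature β-cells, stood at 30.5 against 150 CPM, and Slc2a2, the glucose transporter GLUT2, at 20.3 against 96.1 CPM. Chga, a granin of endocrine granules, was at 14062 against 10526 CPM. These barcodes were thus lower in insulin and in both β-cell genes. The same held in the control, with insulin at 3017 against 5153 per 10000, Mafa at 230 against 482 CPM and Slc2a2 at 141 against 330 CPM. Chga there was at 5170 against 5142 CPM. Scrublet, which scores likely doublets, had marked 8.97% of such barcodes in the TBL/RβKO-labelled library and 7.73% of the others there. In the control 35 of 167 such barcodes and 7.86% of the others were marked, and 61.1% of the control barcodes at that Ppy level also held Sst at 100 or more per 10000, against 23.7% in the TBL/RβKO-labelled library. With the highest doublet scores left out, 5.02% and 51.3% of the insulin class reached that Ppy level. The marker list of α-cells was summed at 5974 CPM in the control insulin class and 9237 CPM in the other, with 5 of 7 genes at 10 CPM in each, and that of δ-cells at 3028 and 5314 CPM, with 3 and 4 of 6 genes, and none of these markers was at 0. Their part in the Ppy and Pyy levels was not tested. With Gcg and Sst under 100 per 10000, Ppy stood at 1849 CPM in the control and 17701 CPM in the other library. Pyy stood at 1248 and 26919 CPM there. Of the PP-cell markers the rule did not use, Meis2 stood at 336 and 344 CPM and Aqp3 at 0.0549 and 0.426 CPM.

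Ppy in the insulin class also varied with insulin itself and with Cre. Below 2000 insulin UMIs per 10000, 15.7% of control barcodes and 74.9% of those in the TBL/RβKO-labelled library reached 100 Ppy UMIs per 10000, and at 2000 or more 5.05% and 34.0% did. The barcodes below 2000 were unlike, with a median of 223 insulin UMIs per 10000 in 204 control barcodes and 1116 in 577 of the other library. Of the insulin-class barcodes in the TBL/RβKO-labelled library, 274 (20.5%) had a Cre UMI, and 44.2% of these (38.2 to 50.3) reached that Ppy level, against 53.6% (50.5 to 56.6) of the 1064 without a Cre UMI. Barcodes with a Cre UMI were deeper, with a median of 81403 UMIs against 64693, and held more insulin, with 3123 against 2149 per 10000.

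In the Gcg class Ppy and Pyy differed little between the libraries. Its 1284 control and 1546 TBL/RβKO-labelled barcodes held Ppy at 8737 and 8468 CPM, a log2 ratio of -0.05, with medians of 8.02 and 8.05 per 10000. Pyy stood at 13938 and 16570 CPM, a log2 ratio of 0.25, with medians of 62.4 and 45.4 per 10000, so that the sum and the median differed in direction. Pyy reached 100 per 10000 in 36.5% (33.9 to 39.2) and 33.2% (30.8 to 35.6) of the class. Of all 8986 genes tested there, 0.879% were higher and 0.134% lower by a log2 ratio of at least 1, and the median was 0.10. Neither Ppy nor Pyy, the 2 of the 4 members at 10 CPM, did so.

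The Sst class carried the second highest levels of both genes in both libraries. Its 223 control and 374 TBL/RβKO-labelled barcodes held Ppy at 24233 and 23680 CPM (log2 ratio -0.03) and Pyy at 57231 and 61690 CPM (0.11). The median barcode held 198 and 192 Ppy UMIs per 10000, and 64.6% and 62.6% reached 100. Pyy was found at that level in nearly the whole class, in 98.7% of barcodes of each library, with medians of 496 and 607 per 10000, and it exceeded Sst itself and the other hormones in 42 (18.8%) and 96 (25.7%) barcodes. The order of the levels across classes was Ppy, Sst, Gcg and insulin for both genes in the control. In the TBL/RβKO-labelled library the insulin class stood above the Gcg class for both genes, and the interquartile range of its Ppy (6.55 to 281 per 10000) overlapped that of the Sst class (42.2 to 397). Of the 9241 genes tested in the Sst class 0.931% were higher and 0.53% lower by a log2 ratio of at least 1, and of the 4 members 3 reached 10 CPM and 0 differed by that much.

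**Figure D4:**
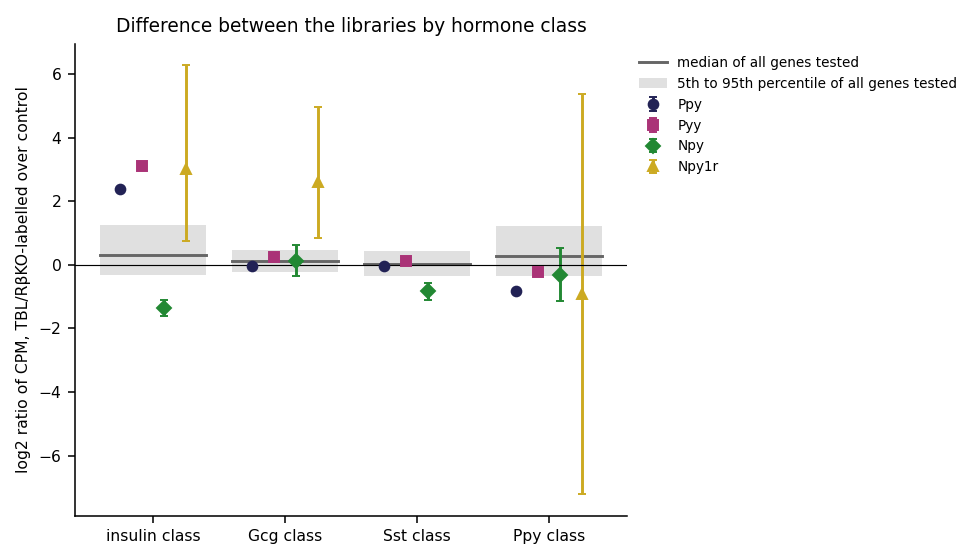
Log2 ratio of CPM in the TBL/RβKO-labelled library over control for Ppy, Pyy, Npy and Npy1r in each hormone class, with exact 95% intervals of counting error. Grey bars span the 5th to 95th percentile of all genes at 10 CPM or more and the grey line is their median. Ppy and Pyy lie above the bar in the insulin class, Ppy lies below it in the Ppy class, and Npy1r, with few UMIs, has wide intervals and no point in the Sst class.

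The Ppy class was a larger share of hormone-class barcodes in the TBL/RβKO-labelled library, with 495 of 3753 (13.2%, 12.1 to 14.3) against 259 of 4643 (5.58%, 4.94 to 6.28) in the control. Its Ppy level, on which the class was chosen, was lower there, at 174767 against 312692 CPM. The median barcode held 1209 Ppy UMIs per 10000 against 3210 in the control. The number of barcodes with 1000 or more Ppy UMIs per 10000 was 280 against 228, and with fewer it was 215 (43.4% of the class) against 31 (12.0%). The larger class thus rested mostly on barcodes of moderate Ppy. The barcodes at 1000 or more were 7.46% (6.64 to 8.35) and 4.91% (4.31 to 5.57) of hormone-class barcodes, and, set against the Gcg class, 18.1 and 17.8 per 100 Gcg-class barcodes. Per 100 Sst-class barcodes they were 74.9 and 102, so the direction depended on the denominator. Those under 1000 were 13.9 and 2.41 per 100 Gcg-class and 57.5 and 13.9 per 100 Sst-class barcodes, higher in the TBL/RβKO-labelled library by each. The share of all hormone-class barcodes depends on the insulin class, which was 35.7% in the TBL/RβKO-labelled library and 62.0% in the control.

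The Ppy-class barcodes under 1000 per 10000 also differed in other genes from those above it. In the TBL/RβKO-labelled library they held a median of 98.8 insulin UMIs per 10000 against 13.9, and 15729 against 5570 CPM of Chga. Their median Pyy was lower, at 640 against 887 per 10000. Pyy UMIs per 100 Ppy UMIs were 136 against 34.1, but the split on Ppy itself raises this ratio below 1000. In the control the split gave 98.2 against 68.8 for insulin, 4410 against 1765 CPM for Chga and 93.7 against 30.2 for this ratio. Nkx6-1, a β-cell factor, stood at 106 against 69.3 CPM in the TBL/RβKO-labelled library and at 82.5 against 59.6 CPM in the control. Other β-cell genes were low in the TBL/RβKO-labelled Ppy class, with Mafa at 0.906 CPM against 85.5 CPM in the insulin class. Slc2a2 stood at 6.34 against 55.3 CPM. Insulin reached 100 per 10000 in 156 (31.5%) of the whole Ppy class in the TBL/RβKO-labelled library and in 63 (24.3%) in the control. The median Ppy of these barcodes was 656 and 2245 per 10000, and their median insulin 290 and 146. Free insulin RNA differed, as the median non-endocrine barcode held 13.5 insulin UMIs per 10000 in the TBL/RβKO-labelled library and 77.2 in the control. The 2 shares are therefore not directly comparable. In the TBL/RβKO-labelled library Cre UMIs were in 15 (3.03%) of the Ppy-class barcodes, against 20.5% in the insulin class and 0.712% in the Gcg class. Scrublet had marked 15 (6.98%) of the barcodes under 1000 and 6 (2.14%) of those above. The marker list of PP cells was only partly detected, as 3 of its 5 genes (Ppy, Pyy and Meis2) reached 10 CPM, while Aqp3 stood at 0.0901 and 0.238 CPM and Sertm1 at 5.67 and 3.67 CPM.

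Pyy in the Ppy class stood at 97557 and 83852 CPM, a log2 ratio of -0.22. It reached 100 per 10000 in 98.8% of the class in each library. For Ppy the log2 ratio was -0.84. Of the 8644 genes tested in the class 7.13% were higher and 0.474% lower by a log2 ratio of at least 1, and neither member did so, while over UMIs other than hormones and mitochondrial genes Ppy had a log2 ratio of -1.16. The class boundary left 7 control and 30 TBL/RβKO-labelled Ppy-class barcodes within 10% of the next hormone, and 10 and 32 barcodes of other classes within 10% of entering it. The lowest Ppy in the class was 245 and 119 per 10000, and the highest among barcodes of no class 8.34 and 95.3.

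**Figure D5:**
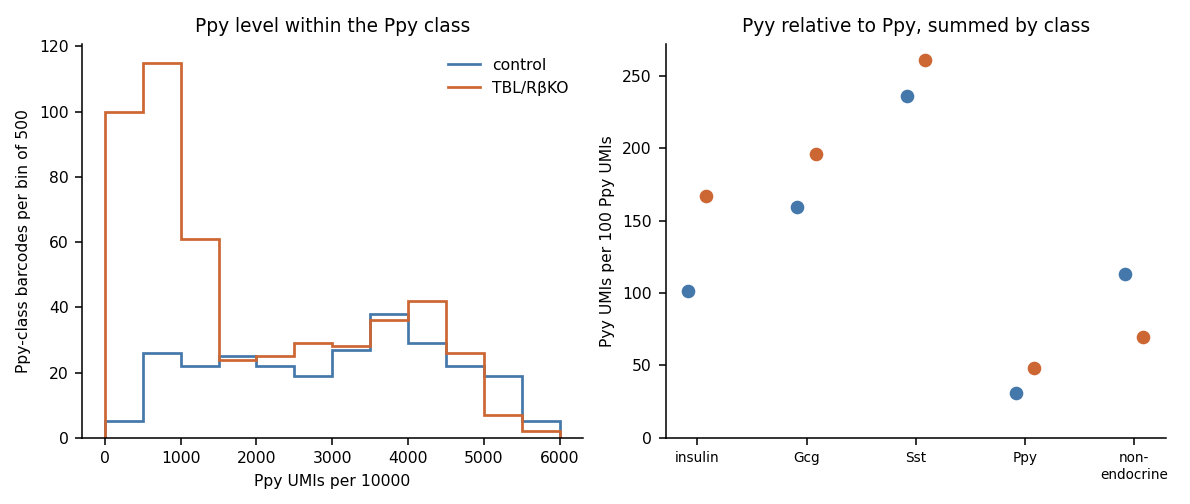
Left, number of Ppy-class barcodes by Ppy UMIs per 10000 in bins of 500 for control (blue) and the TBL/RβKO-labelled library (orange). Right, Pyy UMIs per 100 Ppy UMIs summed over each class and over non-endocrine barcodes. Below 1000 per 10000 the orange library has 215 barcodes and the blue one 31, and Pyy relative to Ppy is higher in the orange library in the 4 hormone classes and lower in non-endocrine barcodes.

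Pyy relative to Ppy differed between classes more than between libraries. Every transcript gives its UMI at the 3′ end, so these ratios compare captured UMIs, not molecules corrected for capture. Per 100 Ppy UMIs the Ppy class held 31.2 Pyy UMIs in the control and 48.0 in the TBL/RβKO-labelled library, the insulin class 101 and 167, the Gcg class 160 and 196, and the Sst class 236 and 261. Among the hormone classes and the non-endocrine barcodes, the ratio was below 100 in the Ppy class and, with 69.8 against 113 in the control, in non-endocrine barcodes of the TBL/RβKO-labelled library. In the Ppy class Pyy exceeded Ppy in 12 control barcodes (4.63%) and in 148 barcodes of the other library (29.9%). Among barcodes of no hormone class, Pyy reached 100 per 10000 in 10 of 426 in the TBL/RβKO-labelled library (2.35%, 1.13 to 4.27). In the control 0 of 104 did so (up to 3.48%), and these intervals overlap. At 10 per 10000 the libraries stood apart, with 55 (12.9%, 9.88 to 16.5) against 0 (up to 3.48%). The sums were 1170 and 106 CPM. The medians, 3.29 and 0.911 per 10000, lay near the 2.90 and 1.24 of non-endocrine barcodes, which made up 233 and 93 of these barcodes.

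Npy was rare and concentrated in few barcodes. In the insulin class it gave 716 UMIs in 85 control barcodes (3.93 CPM) and 154 UMIs in 54 barcodes of the TBL/RβKO-labelled library (1.53 CPM), a log2 ratio of -1.37 (-1.63 to -1.11). One control barcode held 208 of these UMIs and the top 3 held 49.2%, and without the highest barcode of each library the log2 ratio was -1.01. With fewer than 6000 detected genes it was -2.62 (-5.70 to -0.70). The share of barcodes with an Npy UMI went the other way, at 2.95% (2.37 to 3.64) and 4.04% (3.05 to 5.23), and it was 0.521% and 0.523% after thinning to 5000 UMIs. The interval therefore describes the UMIs of a handful of barcodes. Non-endocrine barcodes had an Npy UMI in 2.03% and 4.17%, intervals that overlap those of the insulin class.

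The Sst class had the highest Npy of the hormone classes. It held 216 UMIs in 14 control barcodes (40.3 CPM, 6.28% of the class) and 234 UMIs in 31 barcodes of the TBL/RβKO-labelled library (22.5 CPM, 8.29%), a log2 ratio of -0.84 (-1.11 to -0.56). The highest barcode alone held 80 and 52 UMIs. Sst-class barcodes with an Npy UMI had median Pyy levels of 559 and 635 per 10000 in control and TBL/RβKO-labelled barcodes, against 496 and 606 in those without. The Gcg class held 69 and 88 Npy UMIs and the Ppy class 22 and 33.

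Outside the hormone classes, Npy lay in few barcodes. Barcodes of no class held 551 of the 1574 Npy UMIs kept in the control, 550 of them in 1 barcode with 175 UMIs of Prph, a marker of peripheral neurons. In the TBL/RβKO-labelled library they held 2127 of 2636, with 76.3% of these in 3 barcodes. Barcodes with 632 and 487 of these also held Prph, at 77 and 157 UMIs. Barcodes with 503, 238 and 222 Npy UMIs held stromal markers, among them 162, 106 and 180 UMIs of the collagen gene Col1a1. Dbh, the enzyme that makes noradrenaline, gave 0, 1 and 0 UMIs in the 3 barcodes with Prph.

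Npy1r was near the limit of detection in every class. The insulin class held 2 UMIs in the control and 9 in the TBL/RβKO-labelled library, a log2 ratio of 3.02 (0.75 to 6.27), and the Gcg class held 3 and 21 (2.59, 0.84 to 4.98). The Sst class held 0 in both, where 3 counts are 0.560 and 0.289 CPM, and the Ppy class held 1 and 1. The largest share of a hormone class with an Npy1r UMI was 17 of 1546 barcodes, in the Gcg class of the TBL/RβKO-labelled library, or 1.10%. Non-endocrine barcodes of the same library gave 0 of 240, which allows a share of up to 1.53%, and those of the control gave 2 of 148 (1.35%), so this share lay within what the background allows. Of the other receptors of the family Npy4r gave 1 UMI in the insulin and 1 in the Sst class of that library, Npy2r gave 1 in a barcode of no class, and Npy5r and Npy6r gave 0 in all classes of both libraries. At this depth no receptor could be assigned to an islet class.

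Genes that process or cut these peptides were detected in every hormone class, where 7 of 9 reached 10 CPM. In the insulin class they had a median log2 ratio of 0.43 against 0.31 over all genes tested. By a log2 ratio of at least 1, 2 were higher in the TBL/RβKO-labelled library and 1 was lower, against 8.27% and 1.25% of all genes tested. Pcsk1n, an inhibitor of prohormone convertase 1, stood at 1049 and 2852 CPM (log2 ratio 1.44). Pam, which amidates peptides such as these, stood at 298 and 635 CPM (1.09). Dpp4, which clips the first residues off peptide YY, stood at 46.1 and 18.5 CPM (-1.32). The amidating enzyme and the convertase inhibitor were thus higher and the clipping enzyme lower. Over UMIs other than hormones and mitochondrial genes, only Dpp4 had a ratio of at least 1 (-1.77, against 0.99 for Pcsk1n and 0.64 for Pam). That scaling lowers every log2 ratio of the class by the same amount, so higher genes shrink and lower genes grow. Relative to the median of all genes tested, Pcsk1n stood at 1.13, Pam at 0.78 and Dpp4 at -1.63. Fap and Mme, peptidases below 10 CPM in this class, were too low for that count. Control barcodes held 121 Fap and 6 Mme UMIs, against 155 and 16 in TBL/RβKO-labelled ones (log2 ratios 1.21 and 2.27). In the Gcg and Sst classes 0 of 7 differed by that much, and in the Ppy class Pcsk1, prohormone convertase 1, was the only one of 7 to do so on the CPM scale, at 43.1 and 138 CPM (1.68).

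Genes of inhibitory G-protein signalling, through which these receptors act, had a median ratio above that of all genes in the insulin class. Of 14 genes 9 reached 10 CPM in the insulin class, with a median log2 ratio of 0.67 against 0.31 over all genes tested, and 2 were higher by at least 1 in the TBL/RβKO-labelled library, against 8.27% of all genes tested. Adcy6, an adenylate cyclase, was at 12.6 and 26.0 CPM (1.05), and Kcnj6, a G-protein-gated potassium channel, at 27.5 and 63.8 CPM (1.21). Gnai2, an inhibitory α subunit, had a log2 ratio of -0.15, and Gnai3 (0.24) and Adcy9 (0.26) also lay below the median of all genes. Adcy8 and Kcnj3, below 10 CPM, had log2 ratios of 1.21 and 0.98. Without hormones in the total, which lowers all genes of the class alike, Adcy6 and Kcnj6 were at 0.60 and 0.76. Relative to the median of all genes tested they were at 0.73 and 0.90. None of the list's genes differed by a log2 ratio of 1 in the Gcg, Sst or Ppy class.

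Among transcription factors of other islet lineages, Neurog3 had a ratio between those of Ppy and Pyy and the others lay below both. Of 11 genes 7 reached 10 CPM in the insulin class, with a median log2 ratio of 0.45, and 2 were higher by at least 1, against 8.27% of all genes tested. Neurog3, the factor of endocrine progenitors, stood at 3.66 and 23.5 CPM (2.68), and Etv1 at 43.5 and 106 CPM (1.29). Over UMIs other than hormones and mitochondrial genes these ratios were 2.23 and 0.84. Hhex, a factor of δ-cells, was at 7.19 and 12.4 CPM (0.78), and Pou3f4, below 10 CPM, had a log2 ratio of 1.24. In the Ppy class Neurog3 was higher in the TBL/RβKO-labelled library, at 28.8 against 5.58 CPM (2.37). Among the hormone classes Neurog3 was highest in the Sst class of both libraries, at 70.9 CPM in the control and 55.9 CPM in the other. Etv1 also stood above its insulin-class levels in the Gcg class (552 and 521 CPM) and the Sst class (378 and 373 CPM).

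Over the 10 sums of 5 classes in 2 libraries, Ppy and Pyy followed each other with a Pearson r of 0.93 on log2(CPM + 10). Among the 11416 genes that reached 10 CPM in any sum, Pyy was among the 5 most like Ppy, after Folr1 (0.95) and Sult1d1 (0.95) and before Lefty1 (0.93) and Tmem42 (0.91). The genes most like Pyy were Cfap410 (0.98), 1500011B03Rik (0.97), Sult1d1 (0.97), Cdkl1 (0.97) and Grb7 (0.97). Npy ran opposite to both, with r of -0.74 to Ppy and -0.72 to Pyy, and was most like Nsg1, Vps29, Trabd2b, Tubb2b and Mif (r of 0.99 each), and its highest sums were those of barcodes without a hormone class. These values are descriptions, since the sums of a library share its depth and free RNA and the hormone classes rest on Ppy. Npy1r stayed below 10 CPM in every sum and was not compared.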

How the data were processed

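Islets were profiled with Chromium 3′ chemistry. The deposited values are whole-number UMI counts per gene and barcode, produced by the authors in Cell Ranger (version 7.1.0), and the builds named in the submitters' processing notes are GRCm39 and mm39. The authors' later removal of free RNA was not applied to these counts. Each library is 1 sample, so no test was run and no fold change has a replicate check. Barcodes were kept with more than 2500 genes and under 10% mitochondrial UMIs. UMIs were summed by hormone class and expressed as CPM. Ratios carry exact conditional binomial intervals, CPM exact Poisson intervals and shares exact Clopper-Pearson intervals, at 95%, and 3 counts served as the floor for a count of 0. The ratio function was tested on simulated data. Genes at 10 CPM or more in either library entered the comparison with all genes. Non-endocrine barcodes had 20 or more UMIs per 10000 of macrophage, B-cell, T-cell, stromal or endothelial markers, 2 or more such genes, and more of them than of Chga, Chgb and Scg2. Doublets were not removed. Scrublet (scanpy 1.11.5) marked 84 control barcodes (1.30%) and 1 barcode (0.0187%) of the other library with its automatic threshold, which had therefore not worked, so the highest scores were marked at 0.8% per 1000 barcodes. The 4 members and the gene lists were chosen with earlier results of these data known. From each list of other genes, up to 4 with the largest log2 ratio in the insulin class and 20 or more UMIs were named, together with those past a log2 ratio of 1, and the 5 genes most like each member. Nkx6-1, Mafa, Slc2a2, Chga, Prph, Col1a1 and Dbh were named after their values were seen, and some listed genes are not reported here. Python 3.11.15 was used, with scipy 1.17.1 for intervals and matplotlib 3.10.9 for plots. Alternatives were another scaling, fewer than 6000 genes, a hormone threshold of 200 per 10000, a mitochondrial share under 5%, and leaving out non-endocrine barcodes or the highest doublet scores.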

Additional observations from a re-analysis of the deposited data

Results flagged for a closer look

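The barcodes left out by the filter, 2320 in the control and 1654 in the TBL/RβKO-labelled library, entered no comparison. They held Ppy at 8399 CPM (8345 to 8454) in the control and at 12259 CPM (12188 to 12331) in the other library. Pyy stood at 2974 CPM (2942 to 3007) and 12302 CPM (12230 to 12374) there. Both genes were thus above the control level in data that the report does not use. Npy stood at 30.0 and 21.5 CPM. Npy1r gave 5 UMIs in each library, 0.458 CPM (0.149 to 1.07) and 0.544 CPM (0.176 to 1.27), with intervals that overlap. What sets the Ppy and Pyy of these barcodes was not tested.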

How the results depend on the processing

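Every alternative kept the direction of the 6 main differences between the libraries, as far as it gave a value. The insulin-class log2 ratios of Ppy and Pyy moved beyond their narrow counting intervals to 1.94 and 2.66 over UMIs other than hormones, Iapp and mitochondrial genes, to 3.71 and 4.43 with fewer than 6000 genes, to 2.39 and 3.11 with classes at 200 per 10000, to 2.39 and 3.11 without non-endocrine barcodes, to 2.52 and 3.30 without the highest doublet scores, to 2.34 and 3.05 with a mitochondrial share under 5%, to 2.44 and 3.25 after subtracting the non-endocrine level, and to 3.26 and 4.43 with Gcg and Sst under 100 per 10000. The Npy log2 ratio went to -1.82 under the other scaling, -2.62 with fewer than 6000 genes, -1.73 with Gcg and Sst under 100, and -1.01 without the highest barcode. The difference in the share of insulin-class barcodes at 100 or more Ppy UMIs per 10000, 45.8 percentage points, became 49.9 under the other scaling, 35.5 with fewer than 6000 genes and 41.8 with Gcg and Sst under 100. The difference in the Ppy-class share, 7.61 points, became 2.55 with Ppy at 1000 or more. The causes of these moves were not tested. The limits on second hormones, on the highest Npy barcode and on Ppy at 1000, and leaving out barcodes found in both libraries, were chosen after seeing the data. Subtraction gave no Npy or Npy1r ratio, since 1 library was at or below its non-endocrine level. No paired analysis was possible because each group is 1 library. No replicate could be left out for the same reason. The number of libraries, not depth, limits Ppy and Pyy, while the counts of Npy and above all Npy1r limit any statement on these.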
